A study of Zea mays with 2 samples.

Results

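The genes of 4 enzymes of chlorophyll metabolism were followed in the leaf of maize (Zea mays). They are GRMZM2G105644, which encodes geranylgeranyl diphosphate reductase (CHLP), GRMZM2G073351, which encodes a protochlorophyllide reductase (POR), GRMZM2G419806, which encodes the CHLI subunit of magnesium chelatase, and GRMZM2G109070, which encodes pheophytinase (PPH). The 4 genes, of 39634 in the deposited tables, were chosen by their annotation and selected on their difference between the same 2 libraries that are described here. Their differences are therefore a description of these libraries and carry no test.

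The study compared leaf RNA of untreated plants with leaf RNA of plants treated with an extract of seaweed, in a series that concerns drought. Both groups were of the cultivar Sugar 75 and were sampled at the V5 stage, when the plants have a few fully opened leaves. Each group was sequenced as 1 library, prepared from a pool of 3 independent samples and analysed with 2 technical replicates per the labels. The labels do not say whether the control pool also came from plants under drought, and they give no dose or time for the extract.

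Chlorophyll is built in the plastid from glutamate. A common trunk of enzymes makes protoporphyrin IX, and magnesium chelatase, a complex of the subunits CHLI, CHLD and CHLH, inserts magnesium and so commits the molecule to chlorophyll, while ferrochelatase inserts iron and commits it to heme. POR reduces protochlorophyllide to chlorophyllide in a step that needs light in flowering plants, and CHLP saturates the geranylgeranyl chain to phytol, the tail of chlorophyll and of the tocopherols. In breakdown, chlorophyll b is first turned into chlorophyll a, the stay-green protein (SGR) removes magnesium, PPH cuts off the phytol tail and pheophorbide a oxygenase (PAO) opens the ring. This route is known from leaf senescence. In maize, the gene of CHLI is the locus oil yellow1 (oy1), named for the pale leaves of its mutants, and a PAO gene is lethal leaf spot1 (lls1), named for the spreading cell death of its mutants.

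Values are FPKM as deposited, that is fragments per kilobase of transcript, relative to the size of the library. The range beside a value is the authors' interval, which holds the error of quantifying that library but no spread between plants. Control leaf and treated leaf stand for the 1 library of each group. Differences are given as log2((treated + 1)/(control + 1)), and a gene was counted as lower or higher in treated leaf when this log2 ratio was at most -1 or at least 1. Of the 39634 genes, 16272 had 1 FPKM or more in at least 1 library. The median of their log2 ratios was 0.22, and centring moved the log2 ratio of a well-expressed gene by 0.27 to the lower side. The defining leaf genes were present in both libraries. The mesophyll gene pep1 (phosphoenolpyruvate carboxylase) was listed at 1747 FPKM in control leaf and 1262 FPKM in treated leaf, and the bundle sheath gene me3 (NADP-malic enzyme) at 944 and 591 FPKM. The Rubisco genes RCA1 (Rubisco activase) and ssu1 (small subunit) were listed at 488 and 161 FPKM in control leaf and at 255 and 36.1 FPKM in treated leaf, so that all 4 leaf genes were lower in treated leaf, as were the 3 synthesis genes below. The part of leaf cell makeup in the results was not tested, and in such bulk RNA fewer cells of a type and less RNA per cell cannot be told apart. Of 41 zein genes, which encode storage proteins of the endosperm, 30 were listed at 0 in both libraries and 6 reached 1 FPKM in at least 1, with at most 4.68 FPKM in control leaf and 8.31 FPKM in treated leaf.

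The 3 synthesis genes were lower and the breakdown gene was higher in treated leaf. CHLP (chromosome 5, 206890297 to 206892838) was listed at 141 FPKM (137 to 145) in control leaf and at 47.3 FPKM (44.8 to 49.9) in treated leaf, 2.97-fold lower. POR (chromosome 5, 24860811 to 24864132) was listed at 42.5 FPKM (39.8 to 45.2) in control leaf and at 15.4 FPKM (13.8 to 17.0) in treated leaf, 2.76-fold lower. CHLI (chromosome 10, 9220899 to 9225379) was listed at 27.4 FPKM (25.5 to 29.3) in control leaf and at 14.4 FPKM (13.0 to 15.8) in treated leaf, 1.90-fold lower. For each of these genes the treated library was the low one and the intervals did not overlap. PPH (chromosome 5, 76950189 to 76960276) was listed at 14.9 FPKM (13.6 to 16.2) in control leaf and at 49.5 FPKM (46.4 to 52.6) in treated leaf, 3.32-fold higher. For PPH the treated library was the high one, again without overlap. Coordinates are those of the deposited tables, whose build no label or header names.

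**Figure D1:**
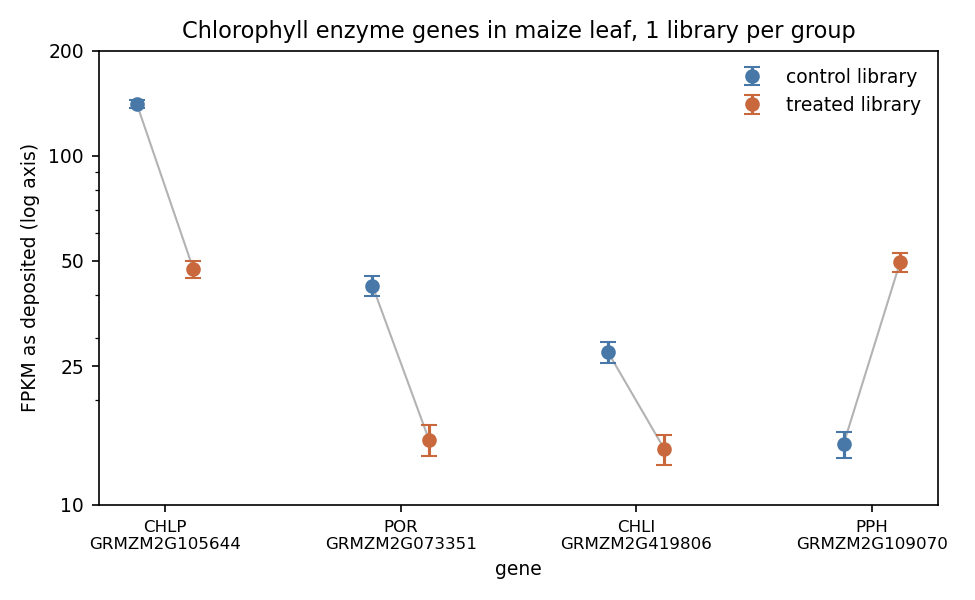
FPKM as deposited (vertical log axis) of the 4 genes in the control and treated libraries, with bars for the authors' interval of 1 library and lines joining the libraries of a gene. CHLP, POR and CHLI sit lower in treated leaf, at 47.3, 15.4 and 14.4 FPKM, and PPH sits higher, at 49.5 FPKM.

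The log2 ratio was -1.55 for CHLP, -1.41 for POR, -0.88 for CHLI and 1.67 for PPH. The interval bounds that bring the libraries closest gave -1.44 for CHLP, -1.18 for POR, -0.65 for CHLI and 1.46 for PPH, and the bounds that set them farthest apart gave -1.67, -1.64, -1.11 and 1.88. CHLP and POR were thus counted as lower and PPH as higher, while CHLI was not counted. Over all genes, 2.52% were counted as lower and 3.71% as higher. With the libraries centred on the median gene, the log2 ratios were -1.81 for CHLP, -1.66 for POR, -1.13 for CHLI and 1.41 for PPH, so that CHLI was then counted as lower too, against a background of 3.48% lower and 2.09% higher. Before centring, genes counted as lower made up 40.4% of the 2 directions, and after it 62.4%. Over all genes, the intervals of 8.76% did not overlap with the treated library lower, and those of 28.6% did not overlap with the treated library higher. Because the 4 genes were selected on this contrast, nothing is read from these shares.

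Among the 16272 genes, 161 had a log2 ratio at or below that of CHLP (0.989%), 198 at or below that of POR (1.22%) and 487 at or below that of CHLI (2.99%). At the other end, 104 genes had a log2 ratio at or above that of PPH (0.639%). In the plot of all genes CHLI lies just inside the line for a log2 ratio of -1, and the other 3 genes lie outside the lines. Fragment numbers were inferred from the deposited intervals and are not counts. The deposited intervals imply 5258 fragments for CHLP in control leaf and 1413 in treated leaf, 971 and 372 for POR, 831 and 413 for CHLI, and 521 and 1023 for PPH. They restate the half-width of the interval, which was smallest for CHLP in control leaf, at 2.76% of the value, and largest for POR in treated leaf, at 10.4%.

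**Figure D2:**
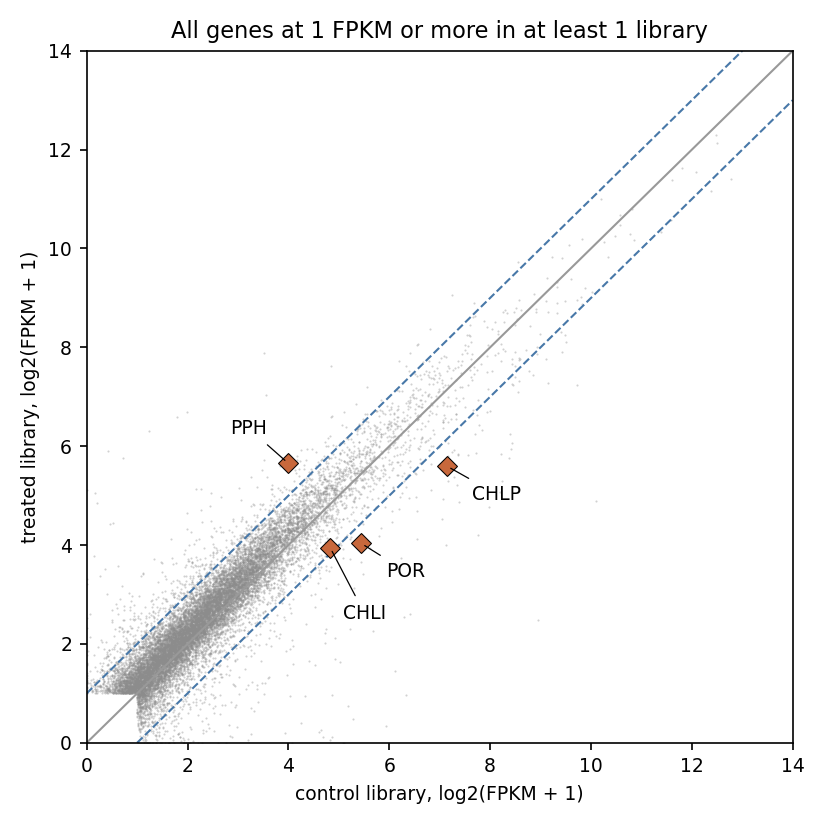
Log2(FPKM + 1) in the control library (horizontal) against the treated library (vertical) for the 16272 genes with 1 FPKM or more in at least 1 library, with the line of equal values and dashed lines at a log2 ratio of -1 and 1. CHLP and POR lie below the lower dashed line, CHLI between the lines at -0.88 and PPH above the upper one.

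The order of the levels differed between the libraries. In the control, CHLP was highest, 3.31-fold above POR, which was 1.55-fold above CHLI, which in turn was 1.84-fold above PPH, and no interval overlapped that of its neighbour. In the treated library PPH was first and CHLP second, with overlapping intervals and a ratio of 1.05, and POR and CHLI followed with overlapping intervals and a ratio of 1.07. PPH and CHLP therefore did not differ beyond their intervals in treated leaf, and neither did POR and CHLI, while CHLP stood 3.08-fold above POR. In units of FPKM, PPH had 0.106 times the level of CHLP in control leaf and 1.05 times in treated leaf. Its level relative to POR was 0.351 in control leaf and 3.22 in treated leaf, and relative to CHLI 0.544 and 3.43. Among all genes of a library ordered by FPKM, CHLP ranked 178 in control leaf and 617 in treated leaf, POR 631 and 2399, CHLI 990 and 2557, and PPH 1985 and 595.

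All 4 genes were listed in the authors' deposited table of genes with a p-value of up to 0.05, none with the significance flag. The authors' deposited table gave a log2 fold change of -1.85 for CHLP (authors' p = 0.0086, q = 0.411) and of -1.76 for POR (p = 0.0018, q = 0.153). For CHLI the authors' deposited table gave -1.20 (p = 0.0276, q = 0.724), and for PPH 1.48 (p = 0.0118, q = 0.507). These log2 fold changes lie nearer to the centred log2 ratios than to the uncentred ones. Of the 16272 genes, 3.47% were listed as lower and 2.18% as higher in the authors' deposited table, whose p-values compare 1 library with 1 library and not the conditions.

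Some of the 4 genes have copies with the same protein name. The second CHLP gene, GRMZM2G419111, was listed at 0.575 FPKM in control leaf and at 0.444 FPKM in treated leaf, under the minimum of 1 FPKM in both, so that GRMZM2G105644 was the only CHLP gene above it. POR has 2 further genes. GRMZM2G036455 was listed at 6.91 FPKM (5.95 to 7.88) in control leaf and at 3.83 FPKM (3.03 to 4.63) in treated leaf, a log2 ratio of -0.71. The gene pcr1, GRMZM2G084958, was listed at 3.94 FPKM (3.18 to 4.69) in control leaf and at 0.140 FPKM (0 to 0.403) in treated leaf, a log2 ratio of -2.11. All 3 POR genes were thus lower in treated leaf without overlap of the intervals, as were 8.76% of all genes. Of the 3, GRMZM2G073351 was selected on this difference, and the treated value of pcr1 rested on about 1 implied fragment. GRMZM2G073351 held 79.7% of the summed FPKM of the POR genes in control leaf and 79.5% in treated leaf. How reads shared by such copies were assigned is not stated in the labels or headers. CHLI and PPH had no second gene under their names.

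CHLP, POR and PPH lie on chromosome 5 and CHLI on chromosome 10, and no other listed gene overlapped any of the 4 loci. The 2 nearest genes on each side were compared with each. Of these 16 neighbours, 12 had 1 FPKM or more in at least 1 library, and their log2 ratios ran from -0.41 to 0.49, with 0 counted as lower or higher. Next to PPH, which was 3.32-fold higher, the ribosomal protein gene GRMZM2G109165, 6438 bases before it, was listed at 78.8 FPKM in control leaf and 67.4 FPKM in treated leaf. On the side of CHLP, GRMZM2G105641, 350 bases after it, was listed at 0 in both libraries, and GRMZM2G105539, 18035 bases after it, at 15.7 and 18.5 FPKM. Of the 12 neighbours, 4 had intervals that did not overlap, GRMZM2G109165 among them. The others differed in the direction of the gene beside them. They were GRMZM2G096972 after PPH (2.09 and 3.32 FPKM), GRMZM2G105791 before CHLP (6.53 and 4.69 FPKM) and GRMZM2G118286 after CHLI (11.4 and 9.45 FPKM). Over all genes, the intervals of 8.76% did not overlap with the treated library lower, and those of 28.6% with it higher. A part of the position on the chromosome was not tested, and nothing is read from these few neighbours.

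Genes most like each of the 4 were taken as those with the smallest Euclidean distance in log2(FPKM + 1) over the 2 libraries, a likeness that rests on 2 values per gene. The 3 genes nearest to CHLP were the photosystem I subunit genes GRMZM2G377855 (psaG/psaK type, 155 FPKM in control leaf and 40.7 FPKM in treated leaf, distance 0.254) and GRMZM2G016622 (subunit IV, 142 and 38.3 FPKM, distance 0.300) and the gene GRMZM2G391831 of the plastid ATP synthase subunit c type (150 and 58.4 FPKM, distance 0.311). Those nearest to POR were AC212023.4_FG004, a pectinesterase gene (42.5 and 15.0 FPKM, distance 0.037), GRMZM2G449496, described as plastid transcriptionally active 16 (41.1 and 15.3 FPKM), and GRMZM2G327595, a serine carboxypeptidase-like gene (42.3 and 16.1 FPKM). The gene nearest to POR thus lay closer to it than the one nearest to CHLP did to CHLP. Near CHLI were a Golgi SNAP receptor gene, GRMZM2G077222 (26.8 and 14.9 FPKM), a heat shock protein gene, GRMZM5G813217 (28.6 and 14.6 FPKM), and a methyltransferase gene, GRMZM2G005260 (26.7 and 13.7 FPKM). Near PPH were a transporter gene of the EamA type, GRMZM2G168502 (13.2 and 47.3 FPKM), a heavy-metal-associated domain gene, GRMZM2G132690 (17.0 and 51.8 FPKM), and an MLO-like gene, GRMZM2G117608 (16.6 and 45.1 FPKM).

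The other genes of the pathway were collected by their annotation into 5 lists. They held 83 genes, of which 62 had 1 FPKM or more in at least 1 library, the 4 genes included. The remaining 21 stayed at or below 0.804 FPKM in both libraries, 6 of them listed at 0 in both. Of the 58 measured genes beside the 4, 3 had a log2 ratio below that of CHLP and 1 had a log2 ratio above that of PPH. The lists are described by counts and medians beside those of all 16272 genes, whose median was 0.22.

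**Figure D3:**
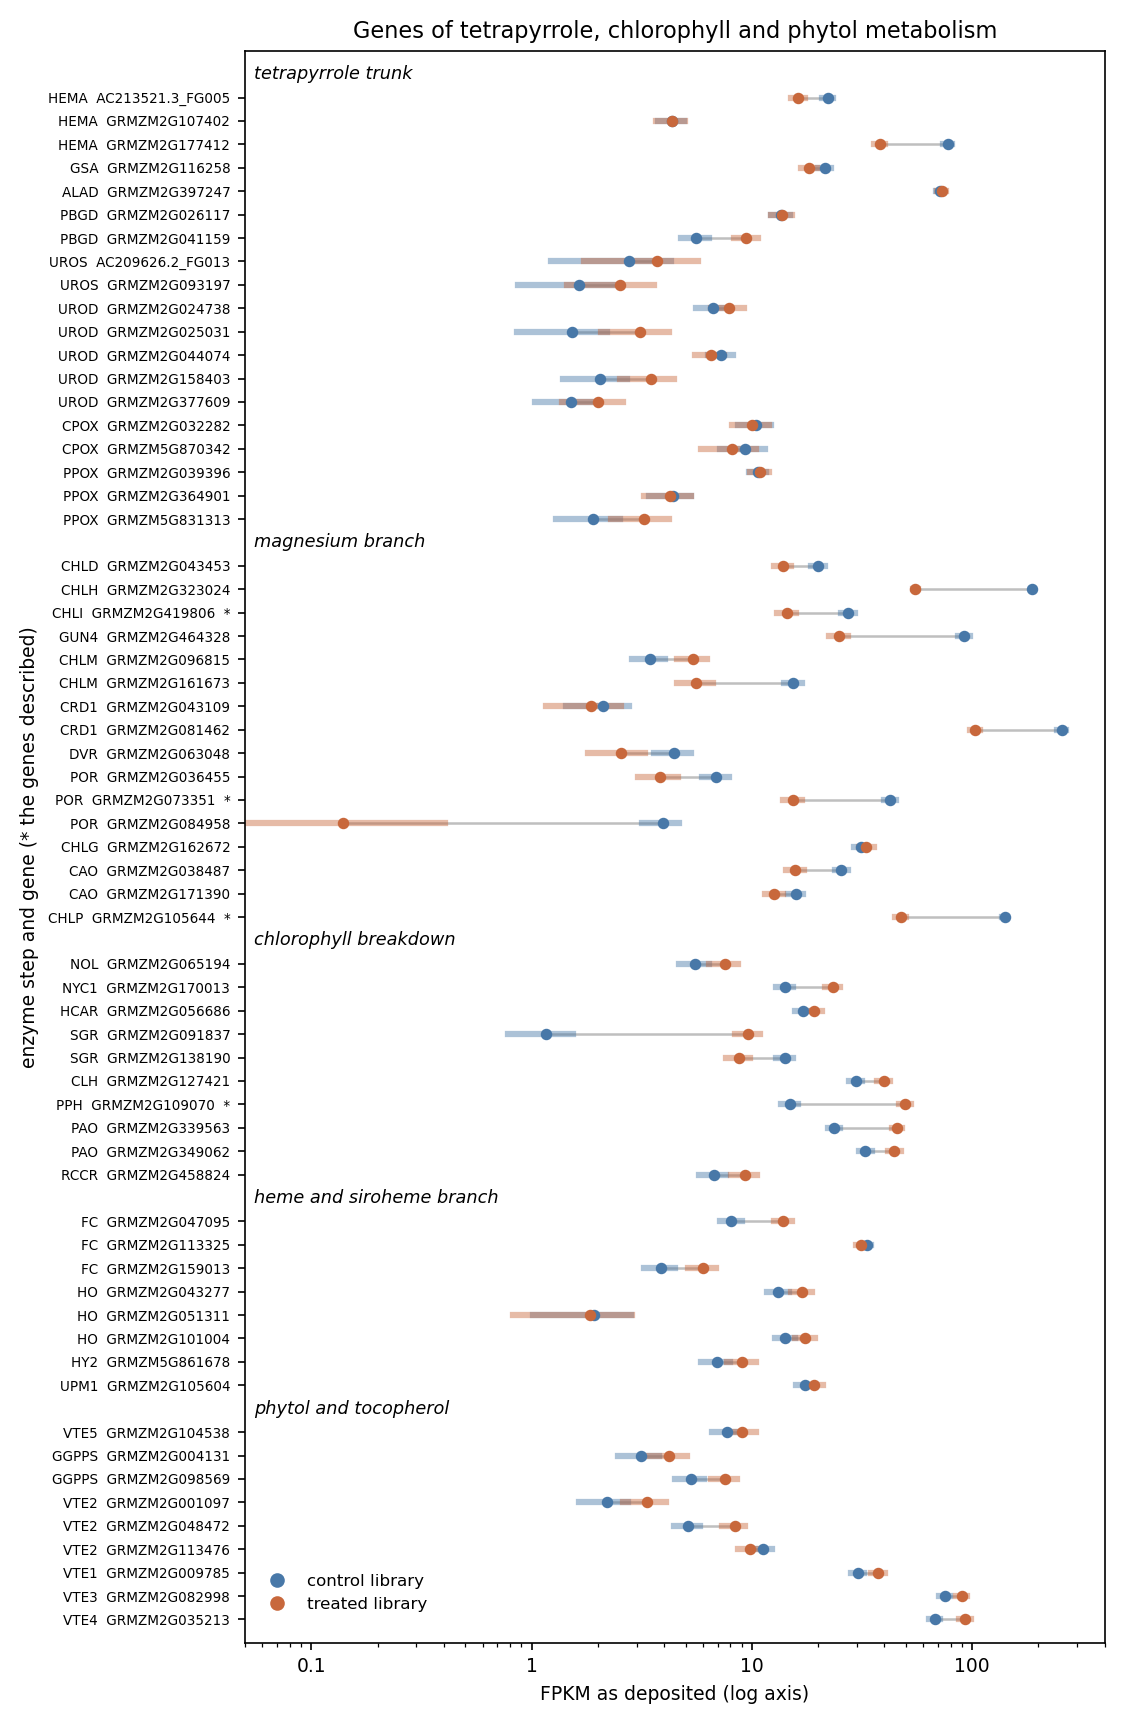
FPKM as deposited (horizontal log axis) of the 62 measured genes of the 5 lists in the control and treated libraries, in pathway order, with thick bars for the authors' interval and stars at the 4 genes; the lower bound of GRMZM2G084958 in treated leaf is 0 and lies off the axis. In the magnesium branch 14 of 16 genes have the lower value in treated leaf, and in the breakdown list 9 of 10 have the higher one, the 4 selected genes included, where 28.6% and 71.4% of all genes do.

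In the trunk, from glutamate to protoporphyrin IX, 1 of 19 measured genes was counted as lower and 0 as higher, with a median log2 ratio of 0.03. Over all genes 2.52% were counted as lower and 3.71% as higher, and the counts of the trunk lie near these shares. The gene counted was gtr1 (GRMZM2G177412) for glutamyl-tRNA reductase, the first committed enzyme of the pathway, listed at 77.5 FPKM (74.1 to 80.9) in control leaf and at 38.1 FPKM (35.7 to 40.4) in treated leaf. Its log2 ratio of -1.01 stood just past the limit. The other glutamyl-tRNA reductase genes were listed at 22.2 and 16.3 FPKM (AC213521.3_FG005) and at 4.33 FPKM in both libraries (GRMZM2G107402). Further down the trunk, the gene GRMZM2G397247 for porphobilinogen synthase was listed at 71.4 FPKM in control leaf and 72.6 FPKM in treated leaf, and the protoporphyrinogen oxidase gene prpo1 (GRMZM2G039396) at 10.6 and 10.9 FPKM, with overlapping intervals. Without overlap, 3 of the 19 measured genes were lower in treated leaf and 1 was higher. Over all genes, 8.76% and 28.6% were. The higher one was the porphobilinogen deaminase gene GRMZM2G041159 (5.60 and 9.45 FPKM). After centring, the median of the trunk was -0.21, so that its sign depends on the scaling, and that of all genes was 0.0043.

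In the magnesium branch, which runs from protoporphyrin IX to chlorophyll and holds CHLI, POR and CHLP, 7 of 16 measured genes were counted as lower and 0 as higher, where 2.52% and 3.71% of all genes were. The median log2 ratio was -0.80, and after centring, with 8 genes counted as lower, it was -1.02. Since 3 of these genes were selected on their difference, the branch was also counted without them, and then 5 of 13 genes were counted as lower and 0 as higher, with a median of -0.66. Of these 13 genes, 11 had the lower value in treated leaf (12 after centring), 10 of them with intervals that did not overlap, and 5 were listed as lower in the authors' deposited table. None of these 5 carried the authors' significance flag, and their q-values there ran from 0.0998 to 0.908. Over all genes 28.6% had the lower value in treated leaf (49.5% after centring), 8.76% without overlap, and 3.47% were listed as lower. The summed FPKM of the 13 genes was 664 in control leaf and 278 in treated leaf. These counts and sums include CHLH (GRMZM2G323024), which is among the 5 genes counted as lower. It was matched by its annotated molecular function, a match added after the values were seen. By descriptions alone, the whole branch had 6 genes counted as lower and a median of -0.71.

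The log2 ratios of GUN4, CHLH and the POR copy pcr1 lay below that of CHLP. The gene of GUN4 (GRMZM2G464328), which binds porphyrin and activates magnesium chelatase, was listed at 92.1 FPKM (86.6 to 97.7) in control leaf and at 24.9 FPKM (22.3 to 27.4) in treated leaf, a log2 ratio of -1.85. GRMZM2G323024, annotated for magnesium chelatase activity and carrying the domains of the large porphyrin-binding subunit CHLH, was listed at 187 FPKM (185 to 190) in control leaf and at 55.3 FPKM (53.7 to 56.9) in treated leaf, a log2 ratio of -1.74. CHLD, the subunit that forms a ring complex with CHLI, was listed at 20.0 FPKM in control leaf and 13.8 FPKM in treated leaf (GRMZM2G043453), a log2 ratio of -0.50. All 3 subunits of the chelatase were lower in treated leaf, and the ratio between them differed. CHLH stood 6.84-fold above CHLI in control leaf and 3.83-fold in treated leaf, and CHLI stood 1.37-fold above CHLD and then 1.04-fold.

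After the chelatase, the highest gene of the branch was GRMZM2G081462 for the magnesium protoporphyrin IX monomethyl ester cyclase subunit CRD1, which closes the fifth ring. It was listed at 255 FPKM (244 to 267) in control leaf and at 103 FPKM (98.0 to 109) in treated leaf, a log2 ratio of -1.29. Its copy GRMZM2G043109 was listed at 2.1 and 1.9 FPKM. The methyltransferase CHLM, which acts just before the cyclase, had a copy that was lower in treated leaf (GRMZM2G161673, 15.5 and 5.60 FPKM, a log2 ratio of -1.32) and another that was higher (GRMZM2G096815, 3.44 and 5.40 FPKM, a log2 ratio of 0.53). The summed FPKM of both CHLM copies was 18.9 in control leaf and 11.0 in treated leaf. The divinyl reductase gene (GRMZM2G063048) was listed at 4.43 and 2.54 FPKM, and the chlorophyllide a oxygenase genes, whose enzyme makes chlorophyll b, at 25.5 and 15.8 FPKM (GRMZM2G038487) and at 15.9 and 12.6 FPKM (GRMZM2G171390).

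Chlorophyll synthase (CHLG, GRMZM2G162672), the enzyme that completes chlorophyll, attaches the tail that CHLP reduces, and its gene was listed at 31.3 FPKM (29.0 to 33.5) in control leaf and at 33.1 FPKM (30.6 to 35.7) in treated leaf, with overlapping intervals. Of the 16 measured genes of the branch, CHLG and the CHLM copy GRMZM2G096815 were the 2 without a lower value in treated leaf on the deposited scale. The log2 ratio of CHLG was 0.08, and after centring it was -0.18.

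**Figure D4:**
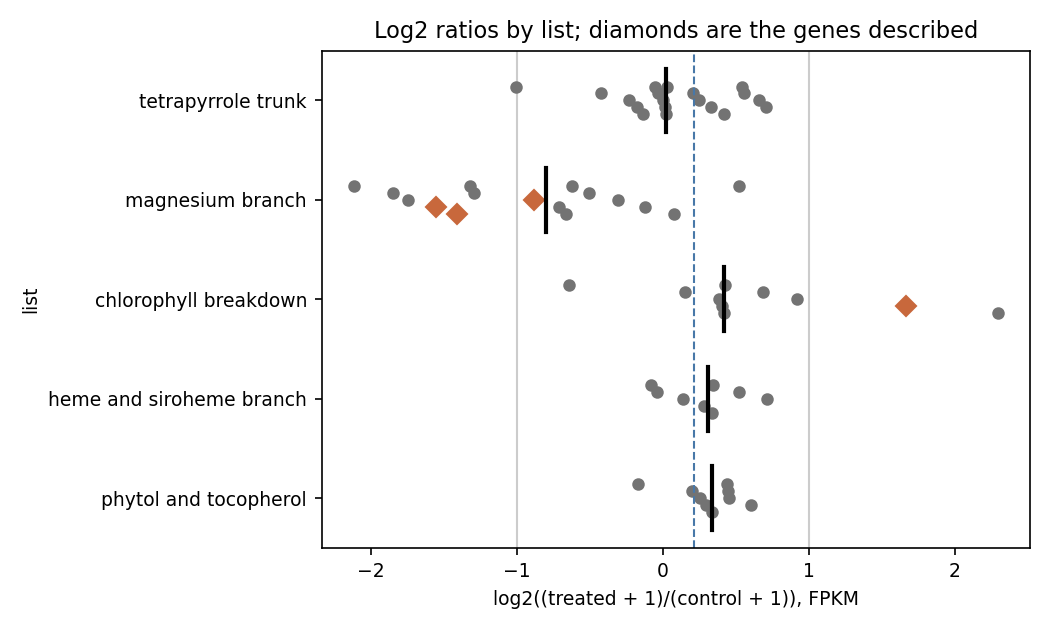
Log2 ratio (horizontal, on FPKM + 1) of each measured gene of the 5 lists, with black bars for the median of a list, diamonds for the 4 genes, a dashed line at the median of all genes (0.22) and grey lines at -1 and 1. The magnesium branch has its median at -0.80 and the breakdown list at 0.42, and the heme and phytol lists have theirs at 0.31 and 0.34.

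Among the genes of breakdown, 2 of 10 measured genes were counted as higher, PPH and an SGR gene, and 0 as lower, with a median log2 ratio of 0.42 where that of all genes was 0.22. Of all genes, 3.71% were counted as higher and 2.52% as lower. Without PPH, 1 of 9 was counted as higher, the median was again 0.42, and 8 had the higher value in treated leaf (7 after centring), 6 of them with intervals that did not overlap. Over all genes 71.4% had the higher value in treated leaf (50.5% after centring) and 28.6% had it without overlap, so that 8 of 9 lies near the share of all genes on the deposited scale. The median of the whole list after centring was 0.17. The SGR gene GRMZM2G091837 (ZmSGR2), whose protein acts just before PPH by removing magnesium, was listed at 1.16 FPKM (0.785 to 1.54) in control leaf and at 9.62 FPKM (8.37 to 10.9) in treated leaf, a log2 ratio of 2.29. In the authors' deposited table it had a log2 fold change of 2.74 (q = 0.0341) and the significance flag. The stay-green-like gene GRMZM2G138190 was lower in treated leaf, with 14.1 FPKM (12.8 to 15.4) in control leaf and 8.71 FPKM (7.61 to 9.81) in treated leaf.

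The chlorophyll b reductase gene NYC1 (GRMZM2G170013) was listed at 14.1 FPKM in control leaf and 23.3 FPKM in treated leaf, and NOL (GRMZM2G065194), of the same reaction, at 5.53 and 7.53 FPKM. The PAO gene lls1 (GRMZM2G339563) was listed at 23.6 FPKM (22.1 to 25.1) in control leaf and at 45.5 FPKM (43.2 to 47.8) in treated leaf, a log2 ratio of 0.92, and the other PAO gene (GRMZM2G349062) at 32.8 and 44.4 FPKM. The red chlorophyll catabolite reductase gene (GRMZM2G458824), whose enzyme follows PAO, was listed at 6.72 and 9.32 FPKM. The 7-hydroxymethyl chlorophyll a reductase gene (HCAR, GRMZM2G056686), whose enzyme completes the step from chlorophyll b to a, was listed at 17.1 FPKM (15.8 to 18.4) in control leaf and at 19.2 FPKM (17.6 to 20.8) in treated leaf. Of these 6 genes none was counted as higher, and the intervals overlapped for NOL and HCAR. Over all genes, 3.71% were counted as higher and 28.6% were higher without overlap. All 6 had the higher value in treated leaf on the deposited scale, as did 71.4% of all genes. After centring HCAR had the lower value in treated leaf, with a log2 ratio of -0.10.

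Chlorophyllase also removes phytol from chlorophyll in the test tube, and its gene GRMZM2G127421 was listed at 29.7 FPKM (27.7 to 31.7) in control leaf and at 39.7 FPKM (37.0 to 42.3) in treated leaf. In the control it stood above PPH, and in treated leaf below it. A second chlorophyllase gene, GRMZM2G103197, was listed at 0.781 FPKM in control leaf and at 0 in treated leaf, and it carried the significance flag in the authors' deposited table (q = 0.00995).

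In the branches beside chlorophyll no gene was counted, where 2.52% of all genes were counted as lower and 3.71% as higher. In lists of 8 and 9 genes, 0 counted lies near these shares. In the heme and siroheme branch, 0 of 8 measured genes were counted as lower and 0 as higher, with a median log2 ratio of 0.31. The most abundant ferrochelatase gene (GRMZM2G113325), whose enzyme competes with magnesium chelatase for protoporphyrin IX, was listed at 33.2 FPKM in control leaf and 31.4 FPKM in treated leaf with overlapping intervals, and another (GRMZM2G047095) at 8.06 and 13.9 FPKM without overlap. The genes of heme oxygenase, which opens the heme ring on the way to the phytochrome chromophore, GRMZM2G043277 and GRMZM2G101004 were listed at 13.2 and 14.2 FPKM in control leaf and at 16.9 and 17.5 FPKM in treated leaf. In the list of phytol and tocopherol genes, 0 of 9 measured genes were counted as lower and 0 as higher, with a median of 0.34. This list also holds genes of geranylgeranyl diphosphate synthase and of homogentisate prenyltransferases, and not all of its enzymes act on the tail that CHLP makes and PPH releases. The phytol kinase gene VTE5 (GRMZM2G104538), which returns free phytol to use, was listed at 7.71 and 9.02 FPKM, and the tocopherol cyclase gene sxd1 (GRMZM2G009785) at 30.3 and 37.4 FPKM. After centring the medians of these lists were 0.06 and 0.12.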

How the data were processed

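Leaf RNA was sequenced in 1 library per group. The submitters' processing notes name Cufflinks 2.2.1, Cuffdiff, Bowtie2 2.2.6, TopHat2 2.1.0, Picard 1.115 and cutadapt 1.8.1. The authors deposited 1 FPKM value per gene and library with interval bounds and a status, per the file headers. Their comparison tables hold a log2 fold change, a p-value and a q-value per listed gene, per the file headers; all 1011 listed genes had the same sign in the library tables, and 8 columns of FPKM values in them were not used, since their names match no label. A test score was deposited by the authors and is not reported.

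From the deposited FPKM, log2((treated + 1)/(control + 1)) was computed for genes with 1 FPKM or more in at least 1 library (python 3.11.15, numpy 2.4.6, pandas 2.3.3, matplotlib 3.10.9). The scale understates differences of low genes. FPKM values are shares of a library, so a few abundant genes can move the rest; for centring, treated values were divided by the median ratio of the 14279 genes that reached 1 FPKM in both libraries. With 1 library per group no p-value was computed. Implied fragments are the squared ratio of 2 times the value to the distance from the upper bound; of genes under 5 implied fragments, 71.7% of 5906 in the control and 71.3% of 5746 in the treated library came out whole within 0.01, so no count test was run. The FPKM value of 1 fragment in the treated library, the shallower one, was 1.25 times that in the control. This value describes the libraries and does not hold for every gene. PPH, for example, had 14.9 FPKM with 521 implied fragments in control leaf and 49.5 FPKM with 1023 in treated leaf. Listed values of exactly 0 can be missing estimates, as 13 genes had a status other than OK. The genes of the lists all had the status OK in both libraries.

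The 4 genes and the lists were chosen with earlier results of these data known. Lists are patterns on the deposited descriptions; after the values were seen, 8 of the 83 genes were added by their annotated molecular function, 4 matches were left out by their description, and the chlorophyllide a oxygenase pattern was widened to a hyphenated spelling. Any measured gene of a list could be named, with the 3 genes nearest to each of the 4 and their copies. Names came from RefSeq (Zm-B73-REFERENCE-NAM-5.0), which matched 67 of the 83 genes and all 4; its coordinates were not used. Computations were tested on simulated data. Alternatives were other pseudocounts, minimums, limits and centring, and lists by descriptions alone.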

Additional observations from a re-analysis of the deposited data

How the results depend on the processing

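The direction of CHLP, POR, CHLI and PPH was the same after centring and at the closest interval bounds. Pseudocounts of 0, 0.1 and 5 FPKM were also used, and a pseudocount cannot change a direction. Beyond the interval bounds lay the centred log2 ratios of CHLP (-1.81), POR (-1.66), CHLI (-1.13) and PPH (1.41), and that of PPH with a pseudocount of 5 FPKM (1.45). The median of the trunk changed sign, to -0.052 with a minimum of 5 FPKM and to -0.21 after centring, and that of breakdown was 0.17 after centring. With a difference of 1.5-fold as the limit, the trunk had 2 genes higher, the magnesium branch 11 lower, breakdown 1 lower and 4 higher, and the heme and phytol lists 1 higher each. The trunk had 0 genes lower with a pseudocount of 5 FPKM or by descriptions alone, a choice made after seeing the data. Over all genes, 657 were lower and 1361 higher with a pseudocount of 0.1 FPKM, 162 and 154 with 5 FPKM, 242 and 400 with a minimum of 5 FPKM, and 922 and 2696 with the limit of 1.5-fold; after centring 332 were higher. The cause was not tested. In all, 77 of 94 recomputed counts stayed within 1.5 times the reported count, and 15 of 20 recomputed log2 ratios of the 4 genes stayed within those from their interval bounds. Some of these outcomes were fixed in advance. The ratios at the closest bounds had to lie within the bounds. With a pseudocount of 1 FPKM, dropping the minimum of 1 FPKM could not change a count. Descriptions alone left the breakdown and heme lists as they were. Of 30 recomputed list medians, 27 lay between the medians from the closest and the farthest bounds of their genes, a wide range (0 to 0.60 for heme, 0.09 to 0.62 for phytol) that holds their centred medians of 0.06 and 0.12. No paired analysis was possible because each group has 1 library. No value has a replicate check, and the depth limits genes near 1 FPKM, such as pcr1 in the treated library.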

Other observations

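After their values were seen, 5 genes outside the lists were looked up, 4 that the lists left out by their description and 1 more. GRMZM2G018484, described as TIC 55, a chloroplast envelope protein of the same oxygenase family as PAO, was listed at 9.81 FPKM (8.73 to 10.9) in control leaf and at 25.6 FPKM (23.5 to 27.7) in treated leaf, a log2 ratio of 1.30. GRMZM2G000739, which carries a tetrapyrrole methylase domain and is annotated for precorrin-2 dehydrogenase activity, was listed at 4.51 FPKM (3.88 to 5.14) in control leaf and at 11.8 FPKM (10.6 to 13.0) in treated leaf, a log2 ratio of 1.22. Both were higher in treated leaf without overlap of the intervals, and after centring the log2 ratios were 1.04 and 0.98. The other 3 did not share this. Over all genes, 28.6% were higher without overlap, and 3.71% were counted as higher (2.09% after centring). As the 5 genes were looked up with their values known, nothing is read from how many were higher. GRMZM2G109560, described as a Lon-type protease, was listed at 24.0 FPKM (22.5 to 25.4) in control leaf and at 22.2 FPKM (20.7 to 23.7) in treated leaf, with overlapping intervals and a log2 ratio of -0.11. GRMZM2G369216 and GRMZM2G046468 stayed below 1 FPKM in both libraries.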
